A study of Mus musculus with 18 samples.

Results

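Genes of the ATF4 stress response and of amino acid synthesis and transport were followed on 18 arrays of mouse embryonic stem cells. The set was a list of 34 genes named by function, of which 33 could be read among the 16022 genes tested. Pycr1, a proline synthesis enzyme, was not analysed here because no probe could be matched to it. All cells were of strain 129SV, were labelled as lacking Esrrb (a pluripotency factor of the nuclear receptor family), and expressed Raf-ErT2, a Raf kinase fusion that 4-hydroxytamoxifen (4OHT) switches on so that Mek and ERK become active. The cells labelled Rescue also carried an Esrrb transgene, and those labelled KO carried an empty vector. Each line was grown in serum and LIF with 2 uM Chir99021, a GSK3 inhibitor, and then held for 24 h without it, in medium containing 250 nM PD173074 to block FGF receptors, before treatment. The titles give 3 groups per line, with 3 arrays in each: 0h (untreated), 8h (250 nM 4OHT for 8 h) and 8h2h (4OHT for 8 h, then a Mek inhibitor for 2 h). The sources used here do not give the promoter behind either transgene or the number of clones per line.

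The labels need 2 cautions. The source names of 12 arrays contradict their titles, since the Mek inhibitor is named there for arrays titled 8h and left out for those titled 8h2h, and groups follow the titles here. Dusp6, Spry4 and Egr1, which ERK induces, were each higher at 8h than at 0h and lower at 8h2h than at 8h in both lines. The Esrrb probe read higher on the arrays labelled KO, by 1.84 ± 0.26 (SE, log2) at 8h and 2.23 ± 0.26 at 8h2h, so every direction between the lines below is one between labels. Replicates a, b and c were 3 slides that each held all 6 groups. Replicate b of the KO-labelled 8h2h group was unlike the rest, since 88.61% of its probes were well above background, against 46.64% to 63.8% on the other 17 arrays, and it is called below the array that stood apart. All 10 embryonic stem cell markers were above background in all 6 groups.

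ATF4 is a transcription factor whose protein is made when phosphorylation of the initiation factor eIF2alpha slows general translation, as happens when amino acids run short or proteins misfold in the endoplasmic reticulum (ER). Together with C/EBP partners it binds composite C/EBP-ATF elements and switches on amino acid synthesis enzymes, transporters, tRNA synthetases and genes that later brake the response. Embryonic stem cells are known for a strong use of threonine, serine and glycine to feed one-carbon metabolism.

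Across the 6 groups, the response genes had their highest levels mostly on KO-labelled arrays after 4OHT. Of the 33 genes, 15 had their highest group mean in the KO-labelled 8h group and 10 in the KO-labelled 8h2h group, whereas 15 had their lowest in the Rescue-labelled 0h group and 8 in the Rescue-labelled 8h group. These places were not counted over all genes, so no share stands beside them. Levels are given as log2 scaled signal, on which 0 is the 75th percentile of each array, and fewer cells of a kind cannot be told apart from less RNA per cell. A change was called at an adjusted p below 0.05 in limma's moderated test over all genes, two-sided with Benjamini-Hochberg adjustment, and ± after a change is its SE.

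**Figure D1:**
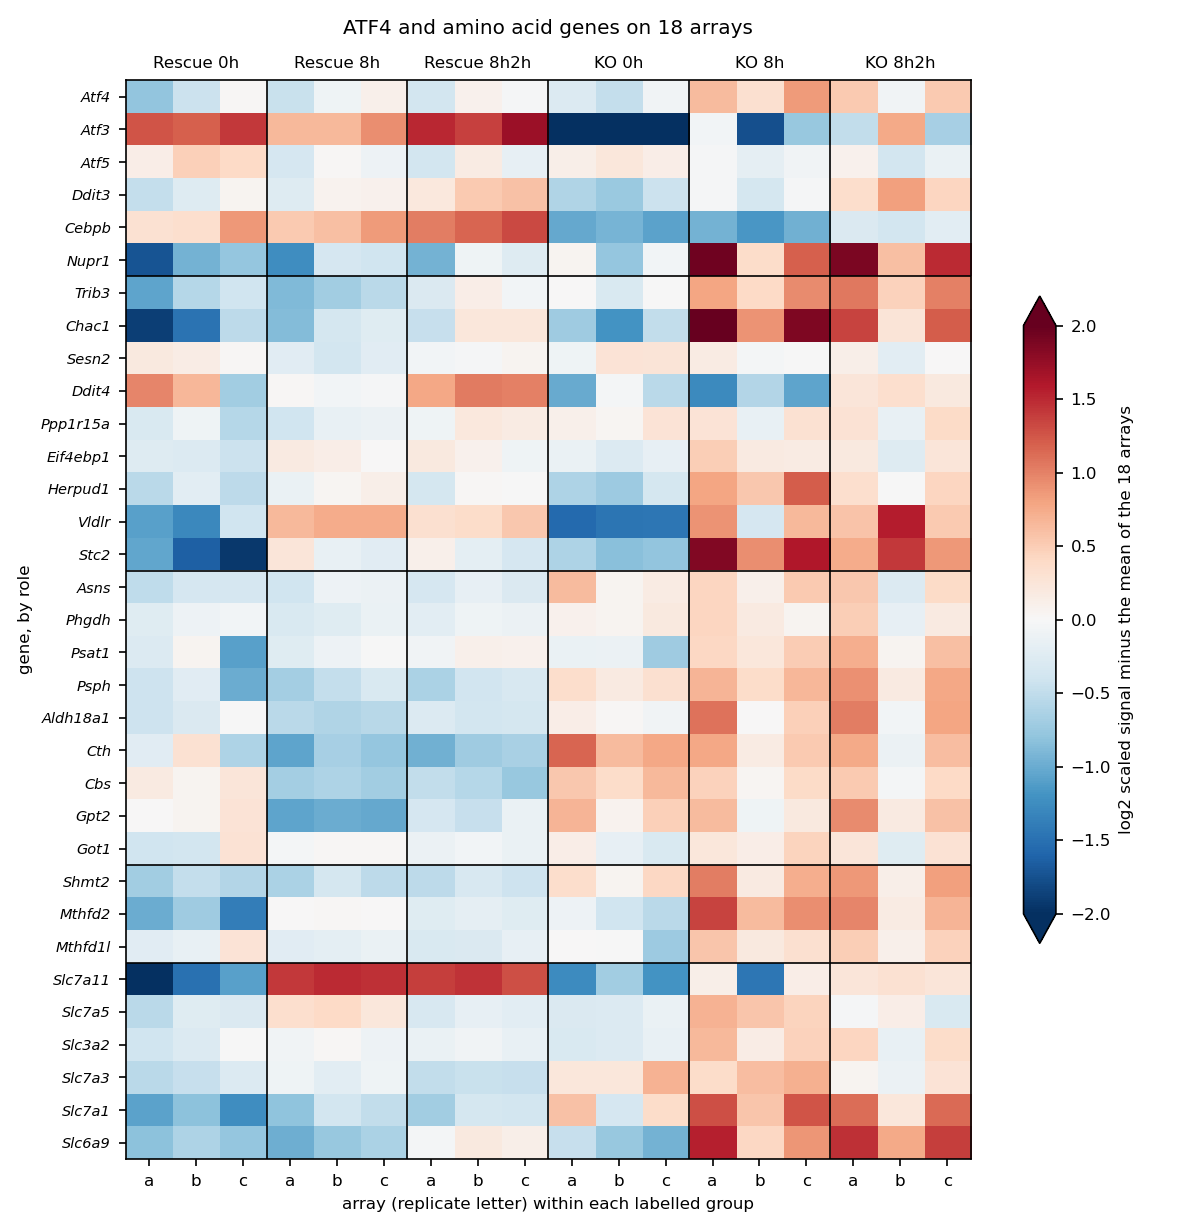
Log2 scaled signal of 33 genes (rows, by role) on 18 arrays (columns, replicates a to c within 6 labelled groups), as the difference from each gene's mean over all arrays; colours stop at -2 and 2. For 25 of the 33 genes the highest group mean was in a KO-labelled group after 4OHT, while Atf3, Cebpb and Ddit4 were highest in the Rescue-labelled 8h2h group and Slc7a11 in the Rescue-labelled 8h group. The same was not counted over all genes.

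On KO-labelled arrays, 15 of the 33 genes rose between 0h and 8h and 0 fell, where 11.9% of all genes rose and 13.5% fell. The median change of the 33 genes was 0.50, against -0.04 over all genes. By role, 3 of 6 stress transcription factors rose, as did 6 of 9 effectors and brakes of the response, 2 of 3 mitochondrial one-carbon enzymes and 4 of 6 transporters, but 0 of 9 enzymes of amino acid synthesis and handling. The count was 16 with the slide as a replicate block. Without scaling, with which the median change of all genes was 0.28 and not -0.04, 12 rose and 0 fell, as did 1447 and 381 of all 16022 genes. Nothing says that a slide letter marks a separate culture, so each p measures only the spread between these arrays. In limma's unadjusted p below 0.05, 17 of the 33 genes were higher and 0 lower, among them 1 of the 9 synthesis enzymes, Psat1 (adjusted p = 0.0571). The share of all genes at that unadjusted threshold was not counted. Here and below, the percentages of all genes are those at the adjusted p, and unadjusted counts have no share beside them. Of the 15 calls, 7 held under each alternative run: Trib3, Chac1, Herpud1, Vldlr, Stc2, Mthfd2 and Slc6a9.

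Atf4, the central transcription factor, read 6.08, 5.88 and 6.29 on the KO-labelled 0h arrays and 6.98, 6.67 and 7.20 on those titled 8h. The 3 arrays titled 8h all lay above the 3 titled 0h, a rise of 0.87 ± 0.23 (adjusted p = 0.0132). This call was lost without replicate b at 0h (adjusted p = 0.0528) or replicate c at 8h (adjusted p = 0.0643). A second Atf4 probe rose by 1.17 (adjusted p = 0.000628). On Rescue-labelled arrays this second probe rose too, by 0.60 (adjusted p = 0.0396), while the first changed by 0.25 and did not pass. Nupr1, a small stress-induced chromatin protein, rose on KO-labelled arrays by 1.43 ± 0.44 (adjusted p = 0.0265), from 0.59, -0.24 and 0.48 to 2.49, 0.91 and 1.73. Its replicates spread widely, with an SD of 0.79 at 8h, and its call was lost without any 1 of 3 arrays, with an adjusted p of up to 0.128. Atf3, a stress-induced repressor and activator, was above background on 0 of 3 arrays at 0h and 2 of 3 at 8h. It was thus at least 1.44-fold higher at 8h (adjusted p = 0.00319), a call lost with normexp background correction (adjusted p = 0.264). Atf5 and Ddit3, the latter also known as CHOP, changed by -0.24 ± 0.15 and 0.46 ± 0.17, which did not pass (adjusted p = 0.287 and 0.0684), although Ddit3 passed with the replicate block (adjusted p = 0.0417). Cebpb, a partner of ATF4, changed by -0.02 ± 0.15 (adjusted p = 0.937).

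Among effectors, Chac1, a glutathione-degrading enzyme, had the largest fitted rise of the genes measured above background in both groups. It read -0.19, -0.68 and 0.02 at 0h and 2.69, 1.42 and 2.38 at 8h on KO-labelled arrays. Every 8h array exceeded every 0h array, and the rise was 2.45 ± 0.40 (adjusted p = 0.00042). Stc2, a secreted glycoprotein, read -2.27, -2.50 and -2.45 at 0h and 0.20, -0.73 and -0.06 at 8h, again without overlap. It rose by 2.21 ± 0.26 (adjusted p = 2.35e-05). Vldlr, a lipoprotein receptor, rose by 1.89 ± 0.31 (adjusted p = 0.000439), from -4.30, -4.21 and -4.19 to -1.85, -3.08 and -2.10. Herpud1, an ER membrane protein of the degradation machinery, rose by 1.41 ± 0.18 (adjusted p = 4.45e-05), from -0.67, -0.78 and -0.41 to 0.73, 0.49 and 1.16. Trib3, a pseudokinase that brakes the response, rose by 0.82 ± 0.21 (adjusted p = 0.00902), from 2.43, 2.12 and 2.42 to 3.21, 2.83 and 3.38. In each of these 5 genes replicate b was the lowest of the 8h arrays. Eif4ebp1, a translation repressor, rose by 0.47 ± 0.13 (adjusted p = 0.019), and its call was lost without KO-labelled 8h replicate a (adjusted p = 0.0915) or 0h replicate b (adjusted p = 0.0628). Sesn2, which restrains mTORC1, Ddit4, which does likewise, and Ppp1r15a, which recruits the eIF2alpha phosphatase, changed by -0.11 ± 0.12, -0.44 ± 0.34 and 0.01 ± 0.17 and did not pass.

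Mthfd2, a mitochondrial enzyme of the folate cycle, rose by 1.32 ± 0.22 (adjusted p = 0.000447) on KO-labelled arrays, from 1.81, 1.52 and 1.37 to 3.26, 2.55 and 2.85. Mthfd1l, which releases formate from mitochondria, rose by 0.60 ± 0.19 (adjusted p = 0.0329), a call lost without any 1 of 3 arrays, with an adjusted p of up to 0.154. Shmt2, which splits serine into glycine and a one-carbon unit, changed by 0.37 ± 0.21 and did not pass (adjusted p = 0.24). Among transporters, Slc6a9, which carries glycine, read -0.39, -0.69 and -0.88 at 0h and 1.63, 0.49 and 0.96 at 8h. All 3 arrays titled 8h were higher, by 1.68 ± 0.25 on average (adjusted p = 0.000152). Slc7a5, the light chain of a large neutral amino acid exchanger, rose by 0.80 ± 0.12 (adjusted p = 0.000188). Its heavy chain Slc3a2 rose by 0.67 ± 0.16 (adjusted p = 0.00601), but a second Slc3a2 probe changed by -0.10, so the direction depends on the probe. Slc7a1, a cationic amino acid carrier, rose by 0.82 ± 0.28 (adjusted p = 0.0476), and leaving out any 1 of 12 arrays ended this call, with an adjusted p of up to 0.2. Slc7a3, its relative, changed by 0.19 ± 0.14 and did not pass.

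On Rescue-labelled arrays the same contrast was mixed, with 6 genes higher and 4 lower at 8h, where 13.0% of all genes rose and 16.1% fell. The median change of the 33 genes was 0.17, against -0.05 over all genes. Vldlr rose by 1.64 ± 0.31 (adjusted p = 0.00125), from -3.83, -4.04 and -3.14 to -2.10, -2 and -2. Stc2 rose by 1.48 ± 0.26 (adjusted p = 0.00071), from -2.69, -3.29 and -3.59 to -1.42, -1.81 and -1.89. Mthfd2 rose by 1.04 ± 0.22 (adjusted p = 0.00241), from 0.93, 1.21 and 0.53 to 1.92, 1.94 and 1.93. In all 3 the groups did not overlap, and these 3 calls held under each alternative run that included the gene. A second Mthfd2 probe passed on KO-labelled arrays (1.35, adjusted p = 0.00405) but not on Rescue-labelled arrays (0.61, adjusted p = 0.156). Slc7a5 rose by 0.68 ± 0.12 (adjusted p = 0.000658) and Eif4ebp1 by 0.43 ± 0.13 (adjusted p = 0.028), the latter call lost without any 1 of 4 arrays, with an adjusted p of up to 0.0917. Both genes also rose on KO-labelled arrays, so that 5 genes rose in both lines. With quantile normalization the Slc7a5 calls were lost in both lines (adjusted p = 0.316 and 0.214).

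Slc7a11, the cystine importer that supplies glutathione synthesis, was the sixth gene to rise. It was well above background on all 3 Rescue-labelled arrays at 8h and all 3 at 8h2h, and on 0 of the other 12 arrays. Its 8h values were -4.19, -4.12 and -4.15, at least 2.73-fold above the 0h group (adjusted p = 1.82e-05), a call lost with normexp background correction (adjusted p = 0.237). The Slc7a11 probe was kept only through those Rescue-labelled groups, where it reads high. Its p-values here and below do not allow for that choice and are no independent support. The 4 genes that fell on Rescue-labelled arrays were Gpt2, Cbs, Atf5 and Sesn2. Gpt2, which makes alanine and alpha-ketoglutarate, read 0.31, 0.37 and 0.59 at 0h and -0.74, -0.68 and -0.72 at 8h, a fall of -1.14 ± 0.21 (adjusted p = 0.000937). Cbs, the first enzyme of transsulfuration, read 1.90, 1.77 and 1.96 at 0h and 1.03, 1.09 and 1.02 at 8h, a fall of -0.83 ± 0.15 (adjusted p = 0.000711). Neither gene's groups overlapped. A second Gpt2 probe changed by -0.89 and did not pass (adjusted p = 0.054). Without scaling, all 4 falls lost their calls, so that 5 genes rose and 0 fell, with adjusted p = 0.151 for Gpt2 and 0.293 for Cbs. Over all 16022 genes, 1635 then rose and 392 fell, where 2086 and 2581 did with scaling. Atf5 changed by -0.47 ± 0.15 (adjusted p = 0.0305) and Sesn2 by -0.39 ± 0.12 (adjusted p = 0.0213), and leaving out 1 array ended either call, with an adjusted p of up to 0.133 and 0.0888. Chac1, Herpud1 and Slc6a9 changed by 0.81 ± 0.40, 0.43 ± 0.18 and -0.06 ± 0.25 and did not pass on Rescue-labelled arrays (adjusted p = 0.161, 0.0943 and 0.904).

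**Figure D2:**
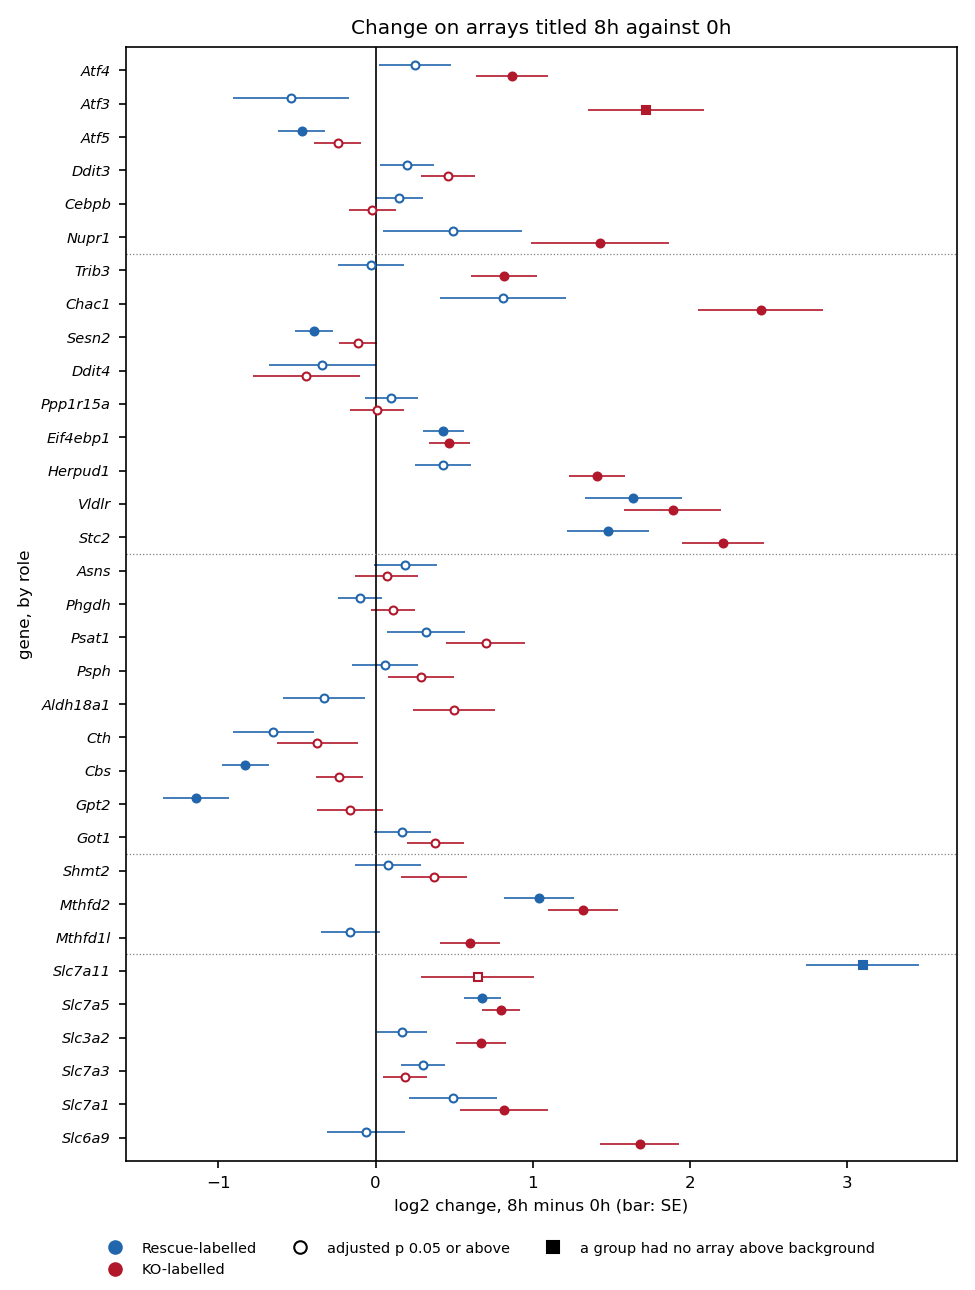
Log2 change of 33 genes on arrays titled 8h against those titled 0h, in Rescue-labelled (blue) and KO-labelled (red) cells, n = 3 per group; bars are SE, filled symbols passed the test and squares mark a group with no array above background. Stc2, Vldlr and Mthfd2 rose in both lines, and Chac1, Herpud1 and Slc6a9 passed on KO-labelled arrays.

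The difference between the lines in the change from 0h to 8h was itself tested. It passed for 3 of 33 genes, against 2.28% of all genes, and leaving out 1 array could end each of the 3 calls. Slc6a9 rose more on KO-labelled arrays by 1.74 ± 0.35 (adjusted p = 0.0174), and the difference was 2.18, 1.33 and 1.70 on slides a, b and c. Its call was lost without Rescue-labelled 8h replicate a (adjusted p = 0.0507) and without scaling (adjusted p = 0.385). For Atf3 the fitted difference of 2.26 ± 0.53 (adjusted p = 0.0371) is not a measured fold, since the KO-labelled 0h group was at background, and leaving out any 1 of 14 arrays ended its call, with an adjusted p of up to 0.101. With the replicate block Atf3 no longer passed (adjusted p = 0.0556) and Herpud1 did (0.98 ± 0.26 without the block, adjusted p = 0.0677, and adjusted p = 0.0418 with it). For Slc7a11 the fitted difference of -2.45 ± 0.52 (adjusted p = 0.0222) is not a measured fold, since 3 of its 4 groups were at background, and the call ended without any 1 of the 3 Rescue-labelled 8h arrays, with an adjusted p of up to 0.0619. Its probe was kept only through Rescue-labelled groups after 4OHT, so this p-value is no independent support. The difference in change did not pass for Chac1 (1.64 ± 0.57, adjusted p = 0.204), Trib3 (0.85 ± 0.29, adjusted p = 0.196) or Atf4 (0.62 ± 0.33, adjusted p = 0.51), so a call in one line and not in the other does not show that these genes responded differently.

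The C/EBP-ATF element was looked for before the start sites of these genes, because many of them moved together. Its core was searched as TGATGNAA on both strands, as a single motif, in the 250 bases before each start in RefSeq promoter windows (GRCm38.p6). Windows were matched for 30 of the 34 genes, and Slc7a3, Slc7a5, Eif4ebp1 and Cth had no entry. A match lay before the start of 9 of the 30 genes (30.0%), against 1056 of 27025 genes of all windows (3.91%). Because the list was named for the ATF4 response, this share is no test of it. The 9 genes were Asns, Atf3, Chac1, Got1, Herpud1, Nupr1, Pycr1, Slc7a11 and Vldlr. Of the 8 that could be read, 5 rose on KO-labelled arrays at 8h (Atf3, Chac1, Herpud1, Nupr1 and Vldlr), against 8 of the 21 read genes with a window and no match before the start and 11.9% of all genes. Between the lines at 8h, 3 of the 8 were higher and 2 lower on KO-labelled arrays, against 13 and 1 of the 21 and 9.16% and 12.4% of all genes. At 8h2h, 1 of the 8 was higher and 2 lower, against 11 and 1 of the 21 and 9.55% and 12.3% of all genes. These sets are small, and whether calls go with a match was not tested. The stretches around the matches are shown for the 5 genes that rose at 8h on KO-labelled arrays and for 2 others. These are Slc7a11, which holds 2 matches on opposite strands, and Asns, which has the element but did not pass the test at 8h in either line. Each is written 5' to 3' on the gene's strand with the matched bases in capitals, and a match is a description of these letters only.
Atf3 (chr1:191183396-191183483, minus strand): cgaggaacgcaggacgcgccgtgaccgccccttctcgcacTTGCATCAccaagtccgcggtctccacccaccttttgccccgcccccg
Chac1 (chr2:119351009-119351096, plus strand): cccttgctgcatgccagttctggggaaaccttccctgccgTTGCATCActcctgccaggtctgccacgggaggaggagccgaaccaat
Herpud1 (chr8:94386277-94386364, plus strand): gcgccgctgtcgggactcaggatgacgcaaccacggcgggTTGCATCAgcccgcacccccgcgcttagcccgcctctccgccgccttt
Nupr1 (chr7:126625533-126625620, minus strand): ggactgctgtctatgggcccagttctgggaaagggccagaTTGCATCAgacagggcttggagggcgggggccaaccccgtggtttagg
Vldlr (chr19:27216780-27216867, plus strand): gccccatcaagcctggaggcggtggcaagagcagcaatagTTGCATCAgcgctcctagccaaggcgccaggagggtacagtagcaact
Slc7a11 (chr3:50443614-50443719, minus strand): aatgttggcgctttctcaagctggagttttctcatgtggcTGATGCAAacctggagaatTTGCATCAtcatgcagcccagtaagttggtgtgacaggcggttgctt
Asns (chr6:7693210-7693272, minus strand): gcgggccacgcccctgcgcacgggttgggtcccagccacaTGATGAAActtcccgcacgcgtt

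The matches stood at different distances from the start. In Asns the match began 23 bases before it, in Slc7a11 66 and 47 bases, in Atf3 and Nupr1 110 bases, in Herpud1 112 bases, in Chac1 193 bases and in Vldlr 200 bases. Every match read TGATGCAA on its own strand except that of Asns, which read TGATGAAA.

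Other genes of the pathway were taken from further lists and counted in the same way at 8h, against 11.9% of all genes higher and 13.5% lower on KO-labelled arrays and 13.0% and 16.1% on Rescue-labelled arrays. Of 20 cytosolic aminoacyl-tRNA synthetases, 5 rose on KO-labelled arrays and 0 on Rescue-labelled arrays (7 and 0 at limma's unadjusted p below 0.05). The 3 with the largest change were Cars (0.63 ± 0.15, adjusted p = 0.00699), Yars (0.60 ± 0.19, adjusted p = 0.0293) and Lars (0.53 ± 0.14, adjusted p = 0.0102). Of 12 eIF2alpha kinases, phosphatase subunits and exchange factors, 1 rose and 1 fell on KO-labelled arrays, namely Eif2b3 (0.57 ± 0.14, adjusted p = 0.0069) and the amino acid sensing kinase Eif2ak4 (-0.57 ± 0.13, adjusted p = 0.00433). Among 20 ER chaperones and unfolded protein response genes, 0 rose and 1 fell on Rescue-labelled arrays (1 and 1 at limma's unadjusted p below 0.05), and 3 rose and 2 fell on KO-labelled arrays. On the latter, Xbp1 and Atf6, transcription factors of the other arms of that response, rose by 1.04 ± 0.15 (adjusted p = 0.000104) and 0.82 ± 0.14 (adjusted p = 0.00054), whereas the chaperone Hsp90b1 fell (-0.45 ± 0.15, adjusted p = 0.0422). Of 18 further amino acid transporters, 7 rose on KO-labelled arrays, led by Slc7a7 (2.52 ± 0.17, adjusted p = 8.6e-08), while 2 rose and 3 fell on Rescue-labelled arrays. Of 16 genes of threonine, glycine and glutamine handling, 3 rose and 4 fell on KO-labelled arrays, and 2 rose and 6 fell on Rescue-labelled arrays. Glud1, glutamate dehydrogenase, rose in both (1.01 ± 0.13 and 1.00 ± 0.13), and Tdh, threonine dehydrogenase, fell on Rescue-labelled arrays by -0.79 ± 0.13 (adjusted p = 0.00043). Of 13 other folate and methionine enzymes, 1 rose and 2 fell in each line. Many of these calls depend on scaling. Without it, 0 synthetases, 0 genes of the eIF2alpha list and 0 folate and methionine enzymes passed in either line, 4 further transporters rose on KO-labelled and 1 on Rescue-labelled arrays, and 2 ER genes and 2 of threonine, glycine and glutamine handling rose on KO-labelled arrays. On Rescue-labelled arrays 1 ER gene then rose and 1 fell, and 1 gene of threonine, glycine and glutamine handling rose. All falls named or counted in these lists on KO-labelled arrays lost their calls, and so did the 6 falls of threonine, glycine and glutamine handling on Rescue-labelled arrays, with adjusted p = 0.382 for Tdh. Over all genes, the falls went from 2164 to 381 on KO-labelled and from 2581 to 392 on Rescue-labelled arrays. The rises over all genes went from 1913 to 1447 and from 2086 to 1635. The rises of Xbp1, Atf6, Slc7a7 and Glud1 passed without scaling too (adjusted p = 0.000762, 0.023, 6.36e-06 and 0.004 on KO-labelled arrays).

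Between 8h and 8h2h few of the genes moved. On Rescue-labelled arrays 0 rose and 1 fell in limma's test, where 1.43% and 1.45% of all genes did. At limma's unadjusted p below 0.05, 7 rose and 2 fell, with no share over all genes counted. On KO-labelled arrays 3 rose and 2 fell, where 4.14% and 3.20% of all genes did, and 2 rose and 0 fell with quantile normalization. Slc7a5 fell in both lines. It read -1.86, -1.81 and -1.97 at 8h and -2.53, -2.36 and -2.41 at 8h2h on Rescue-labelled arrays, a change of -0.55 ± 0.12 (adjusted p = 0.0221). On KO-labelled arrays it read -1.50, -1.65 and -1.75 and then -2.23, -2.07 and -2.51, a change of -0.64 ± 0.12 (adjusted p = 0.00545). Neither pair of groups overlapped, and the 8h2h means of -2.43 and -2.27 differed from the 0h means by 0.13 ± 0.12 and 0.17 ± 0.12, which did not pass (adjusted p = 0.508 and 0.342). Quantile normalization ended both calls (adjusted p = 0.986 and 0.069), and no scaling did too (adjusted p = 1 and 0.496). On Rescue-labelled arrays leaving out any 1 of the 6 arrays compared also ended it, with an adjusted p of up to 0.118.

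Cebpb rose on KO-labelled arrays from -0.55, -0.76 and -0.56 to 0.11, 0.03 and 0.19, by 0.73 ± 0.15 (adjusted p = 0.00752), a call lost without scaling (adjusted p = 0.0801) and with only the arrays compared (adjusted p = 0.0763). On Rescue-labelled arrays its change was 0.51 ± 0.15, which did not pass (adjusted p = 0.0963) except with the replicate block (adjusted p = 0.0421). Ddit4 rose by 1.22 ± 0.34 (adjusted p = 0.043) and Ddit3 by 0.66 ± 0.17 (adjusted p = 0.0324) on KO-labelled arrays, while Slc7a3 fell by 0.49 on the log2 scale (adjusted p = 0.0469). These 3 calls ended without the array that stood apart (adjusted p = 0.103, 0.12 and 0.16), and leaving out 1 of 12, 4 and 13 arrays ended them, with an adjusted p of up to 0.146, 0.12 and 0.187. Gpt2 went from -0.74, -0.68 and -0.72 to -0.03, -0.15 and 0.17 on Rescue-labelled arrays, a change of 0.71 ± 0.21 that did not pass (adjusted p = 0.106) except with the replicate block (adjusted p = 0.0387) and without the array that stood apart (adjusted p = 0.0473). With the block, Herpud1 also passed as lower on KO-labelled arrays (-0.59 ± 0.18, adjusted p = 0.065 without it and 0.0408 with it). The difference between the lines in this step passed for 0 of 33 genes in limma's test (also 0 at an unadjusted p below 0.05), against 0.0562% of all genes. Of the 20 ER chaperones and unfolded protein response genes, 5 fell in this step on KO-labelled arrays and 1 on Rescue-labelled arrays, where 3.20% and 1.45% of all genes did. Without scaling, 1 and 0 fell. Against 0h, 7 and 2 were lower at 8h2h, where 11.4% and 10.8% of all genes were, and 0 and 1 without scaling.

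**Figure D3:**
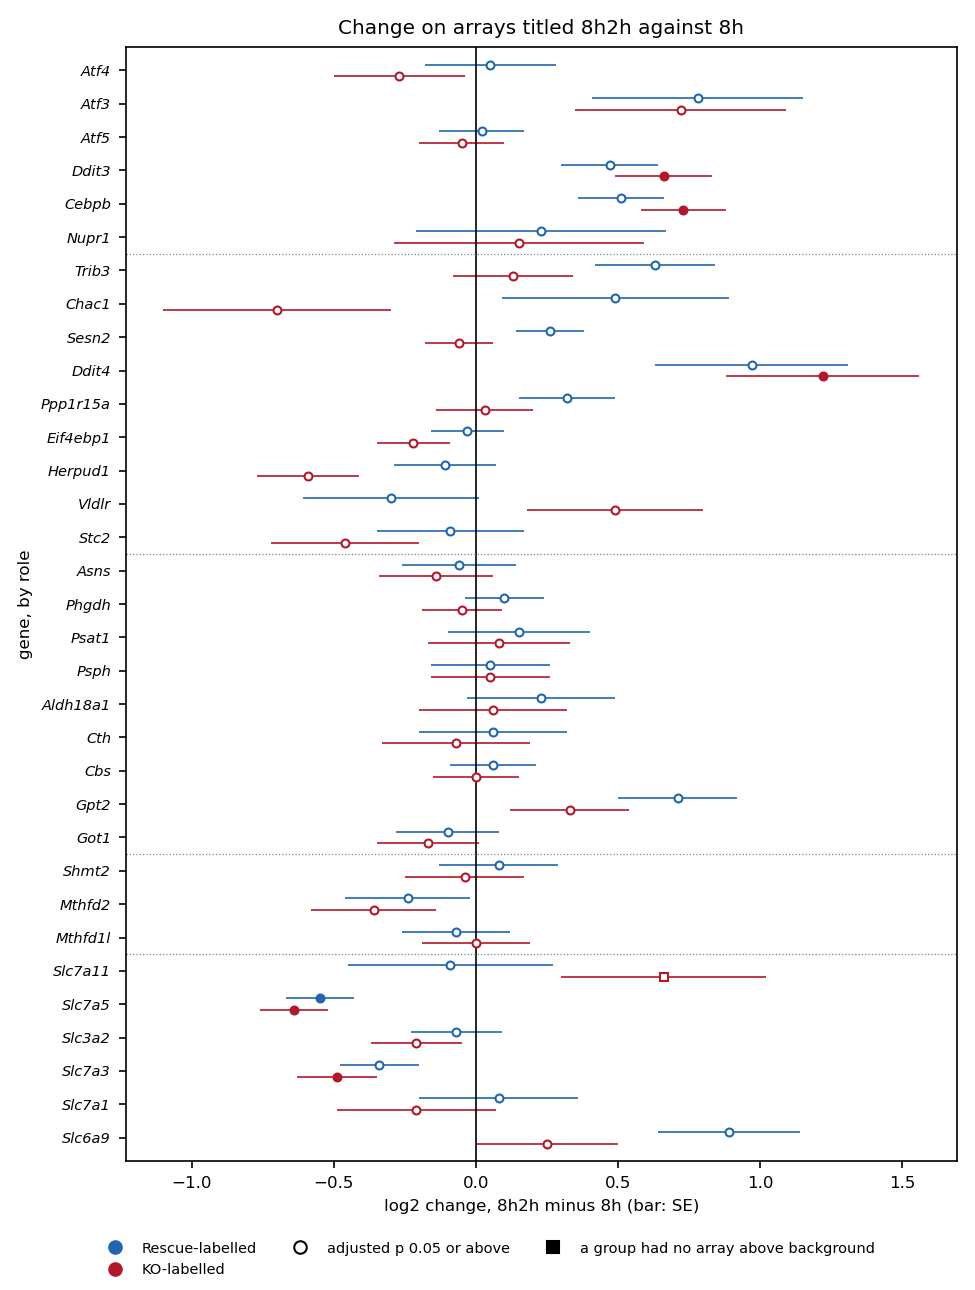
Log2 change of 33 genes on arrays titled 8h2h against those titled 8h, in Rescue-labelled (blue) and KO-labelled (red) cells, n = 3 per group; bars are SE, filled symbols passed the test and squares mark a group with no array above background. Slc7a5 fell in both lines, by -0.55 and -0.64, and most other genes lie near 0 in 1 or both lines.

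Against 0h, 8 genes were higher and 2 lower at 8h2h on Rescue-labelled arrays, where 10.5% of all genes rose and 10.8% fell. On KO-labelled arrays 14 were higher and 0 lower, where 11.0% rose and 11.4% fell. At limma's unadjusted p below 0.05, 18 were higher and 1 lower, with no share over all genes counted. Without scaling, with which the median change of all genes was 0.36 and 0.47 and not -0.05 and 0, 7 and 15 rose and 0 fell. Of all 16022 genes, 1533 then rose and 156 fell on Rescue-labelled arrays, and 2252 and 104 on KO-labelled arrays. Among the 33 genes, the KO-labelled count of rises was 20 without the array that stood apart and 16 with the replicate block. The comparisons share their 0h arrays with those of 8h. Higher in both lines were Cebpb (0.66 ± 0.15 and 0.71 ± 0.15), Chac1 (1.29 ± 0.40 and 1.74 ± 0.40), Ddit3 (0.67 ± 0.17 and 1.12 ± 0.17), Mthfd2 (0.80 ± 0.22 and 0.96 ± 0.22), Slc6a9 (0.83 ± 0.25 and 1.93 ± 0.25), Stc2 (1.39 ± 0.26 and 1.76 ± 0.26) and Vldlr (1.34 ± 0.31 and 2.38 ± 0.31), the Rescue-labelled value first. On Rescue-labelled arrays the calls of Chac1, Ddit3, Mthfd2 and Slc6a9 ended without any 1 of 2 to 4 arrays, with an adjusted p of up to 0.131, 0.06, 0.0783 and 0.0871. The second Mthfd2 probe passed on KO-labelled (0.99, adjusted p = 0.0292) but not on Rescue-labelled arrays (0.40, adjusted p = 0.418). Slc7a11 was called in both as well, but on KO-labelled arrays both of its groups were at background. No fold is given there, and its place among the 14 is no measured rise. It was at least 2.57-fold higher on Rescue-labelled arrays (adjusted p = 3.66e-05). The 2 that stayed lower on Rescue-labelled arrays were Cbs (-0.76 ± 0.15, adjusted p = 0.00192) and Atf5 (-0.45 ± 0.15, adjusted p = 0.0468), of which Atf5 was lost without any 1 of 13 arrays, with an adjusted p of up to 0.192. Atf4 read 6.87, 6.28 and 6.87 at 8h2h on KO-labelled arrays, 0.59 ± 0.23 above 0h, which did not pass (adjusted p = 0.0841) except without the array that stood apart (adjusted p = 0.0289) or with the replicate block (adjusted p = 0.0363). The second Atf4 probe passed as higher in both lines, by 0.61 on Rescue-labelled (adjusted p = 0.045) and 0.92 on KO-labelled arrays (adjusted p = 0.00485). Trib3 was higher by 0.94 ± 0.21 on KO-labelled arrays (adjusted p = 0.00458) and by 0.60 ± 0.21 on Rescue-labelled arrays, which did not pass (adjusted p = 0.0538) except with the block (adjusted p = 0.0374). Psat1, a serine synthesis enzyme, was higher by 0.78 ± 0.25 on KO-labelled arrays (adjusted p = 0.04), a call lost without any 1 of 11 arrays, with an adjusted p of up to 0.164.

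**Figure D4:**
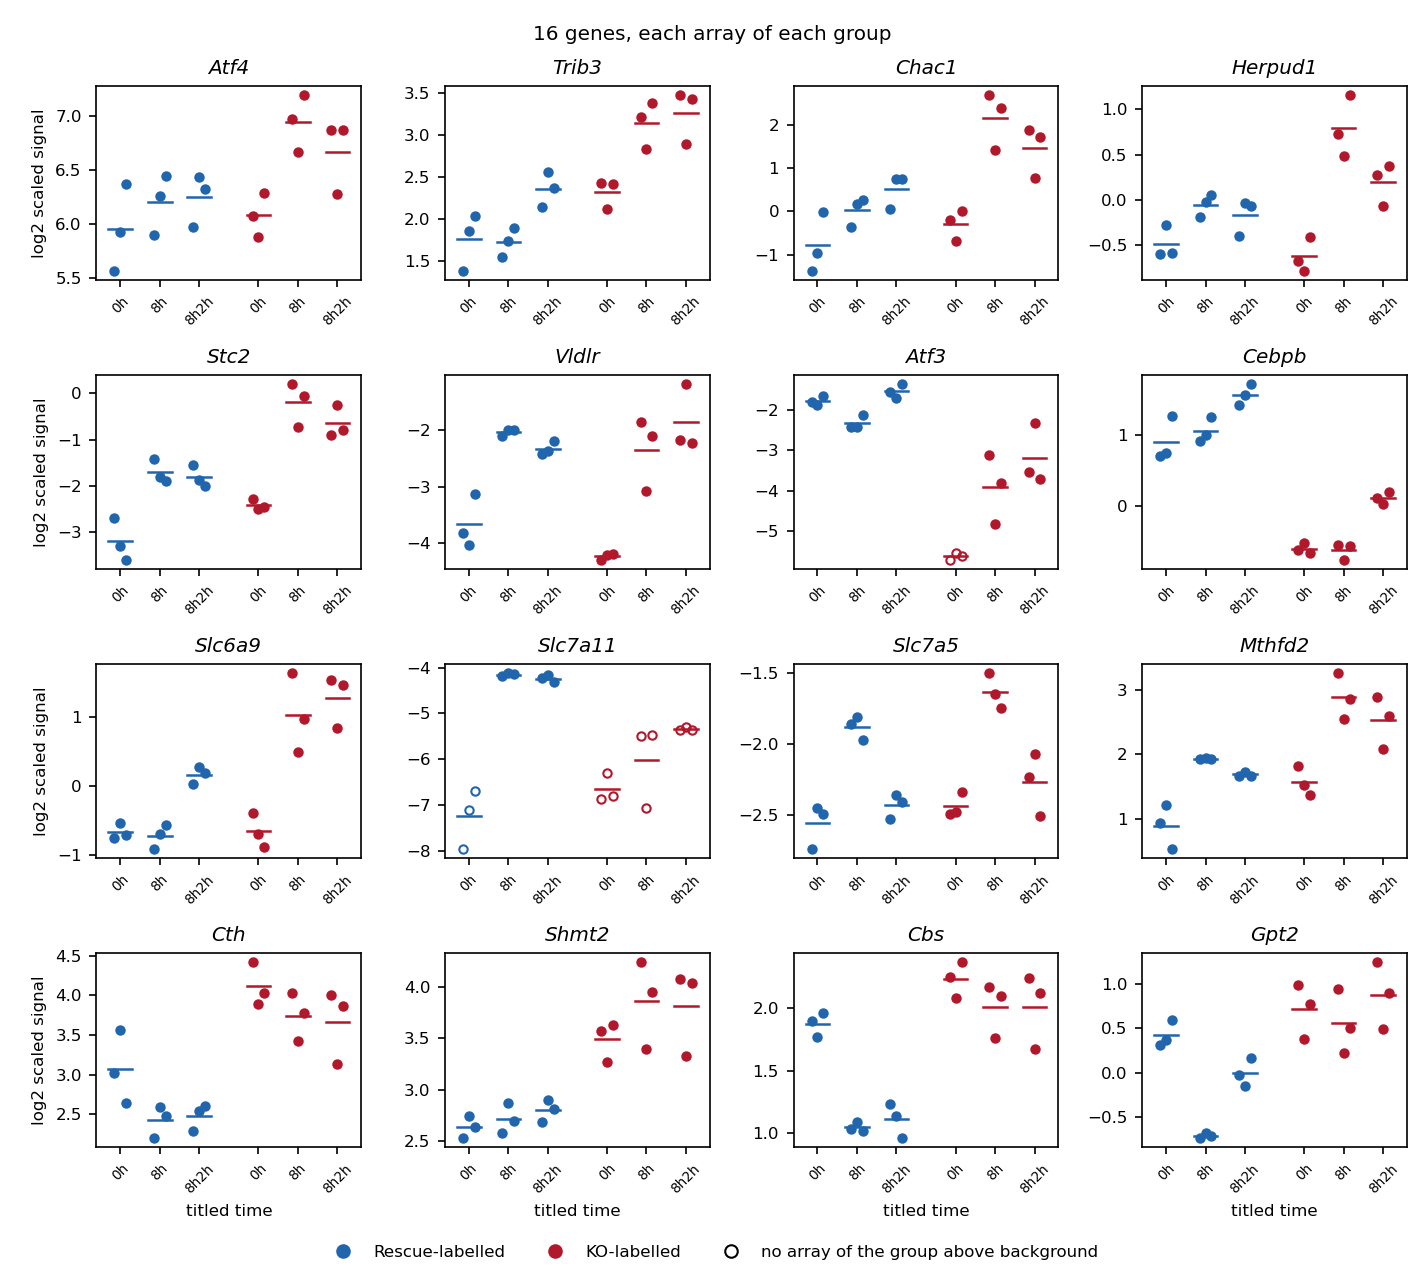
Log2 scaled signal of 16 genes on each array (points) with group means (lines), by titled time, for Rescue-labelled (blue) and KO-labelled (red) cells, n = 3 per group; open points mark a group with no array above background. KO-labelled points lie above Rescue-labelled ones at each time for Cth and Shmt2 and below them for Atf3 and Cebpb.

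The lines already differed at 0h, with 7 genes higher and 2 lower on KO-labelled arrays, where 7.09% of all genes were higher and 11.3% lower. At 8h, 18 genes were higher and 3 lower, where 9.16% and 12.4% of all genes were, and 14 of the 21 calls held under each alternative run that included the gene. Slc7a11 is among these 14 but was not in the run that asked for signal above background on all 18 arrays. At 8h2h, 14 were higher and 3 lower, where 9.55% and 12.3% were. The median difference of the 33 genes was 0.25 at 0h, 0.57 at 8h and 0.47 at 8h2h, against -0.02, -0.01 and 0.01 over all genes. At 8h the arrays of the lines did not overlap for 28 of the 33 genes, against 48.0% of all genes. Without the array that stood apart, 11, 20 and 18 genes were higher. Without scaling, 2 were higher and 2 lower at 0h, 13 and 2 at 8h, and 9 and 1 at 8h2h. Of all 16022 genes, 465 were then higher and 546 lower at 0h, 537 and 674 at 8h, and 811 and 453 at 8h2h. These comparisons share arrays with the changes above, and the Esrrb probe goes against the labels at 8h and 8h2h. At 0h it differed by 0.63 ± 0.26, which did not pass (adjusted p = 0.118).

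The synthesis enzymes, of which 0 of 9 passed as higher at 8h in either line, differed between the lines. Higher on KO-labelled arrays were 3 of 9 at 0h, 6 of 9 at 8h and 5 of 9 at 8h2h, and without scaling 0, 3 and 3 of 9. Cth, the second enzyme of transsulfuration, read 3.02, 3.56 and 2.64 on Rescue-labelled and 4.42, 3.89 and 4.03 on KO-labelled arrays at 0h. At 8h it read 2.20, 2.59 and 2.48 against 4.03, 3.42 and 3.78, and at 8h2h 2.29, 2.54 and 2.60 against 4.01, 3.13 and 3.87. KO-labelled arrays were higher without overlap at each time. The differences were 1.04 ± 0.26 (adjusted p = 0.0125), 1.32 ± 0.26 (adjusted p = 0.00238) and 1.19 ± 0.26 (adjusted p = 0.00468) at 0h, 8h and 8h2h. Psph, the last enzyme of serine synthesis, differed by 0.83 ± 0.21, 1.06 ± 0.21 and 1.06 ± 0.21, and passed at each time. At 0h the Cth call was lost without KO-labelled replicate a (adjusted p = 0.0621) or Rescue-labelled replicate c (adjusted p = 0.0584), and the Psph call without the latter (adjusted p = 0.0539). Phgdh, the first enzyme of that path, differed by 0.25 ± 0.14, 0.46 ± 0.14 and 0.31 ± 0.14 and passed at 8h (adjusted p = 0.0328), a call lost without any 1 of 5 arrays, with an adjusted p of up to 0.153. Psat1, the middle enzyme, differed by 0.12 ± 0.25, 0.49 ± 0.25 and 0.42 ± 0.25 and passed at no time. Cbs was higher by 0.96 ± 0.15 at 8h (adjusted p = 0.000361) and 0.90 ± 0.15 at 8h2h (adjusted p = 0.000621). Gpt2 was higher by 1.27 ± 0.21 (adjusted p = 0.000658) and 0.88 ± 0.21 (adjusted p = 0.00801) at those times. The second Gpt2 probe passed at 8h2h (1.25, adjusted p = 0.0133) but not at 8h (0.95, adjusted p = 0.0524). For the Cbs probe and the first Gpt2 probe, the 3 Rescue-labelled 8h arrays lay below every 0h array of either line and every KO-labelled 8h array. Aldh18a1, a proline synthesis enzyme, was higher by 1.09 ± 0.26 at 8h (adjusted p = 0.00802) and 0.92 ± 0.26 at 8h2h (adjusted p = 0.021), the latter lost without any 1 of 4 arrays, with an adjusted p of up to 0.0904. Asns, asparagine synthetase, was higher by 0.68 ± 0.20 at 0h (adjusted p = 0.0294), a call lost without any 1 of 5 arrays, with an adjusted p of up to 0.137, and Got1, aspartate aminotransferase, passed at no time. A second probe of either gene gave other calls, since the second Asns probe was higher at 8h by 1.2 (adjusted p = 0.0163) and did not pass at 0h (0.84, adjusted p = 0.0914), and the second Got1 probe was higher at 0h by 0.61 (adjusted p = 0.00643). The second Got1 probe also rose on Rescue-labelled arrays at 8h, by 0.58 (adjusted p = 0.00506).

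Shmt2 was higher on KO-labelled arrays at all 3 times, by 0.85 ± 0.21 (adjusted p = 0.0126), 1.14 ± 0.21 (adjusted p = 0.00156) and 1.02 ± 0.21 (adjusted p = 0.00349). Its Rescue-labelled arrays spanned 2.53 to 2.90 over the 3 times and its KO-labelled arrays 3.27 to 4.24, without overlap, although its 0h call was lost without KO-labelled replicate c (adjusted p = 0.0536) and without scaling. A second, dimmer Shmt2 probe passed as higher at 8h2h (1.31, adjusted p = 0.0258) but not at 0h (0.84, adjusted p = 0.158) or 8h (0.46, adjusted p = 0.473). Mthfd2 was higher by 0.68 ± 0.22, 0.96 ± 0.22 and 0.84 ± 0.22, and its call at 0h (adjusted p = 0.0455) ended when any 1 of 13 arrays was left out, with an adjusted p of up to 0.172, and that at 8h2h without KO-labelled replicate a (adjusted p = 0.0655). Without scaling the Mthfd2 calls between the lines were lost at all 3 times. The second Mthfd2 probe passed at 8h (0.99, adjusted p = 0.0304) but not at 0h (0.25, adjusted p = 0.643) or 8h2h (0.85, adjusted p = 0.0604). Among transporters, Slc7a1 was higher by 1.26 ± 0.28 (adjusted p = 0.00686), 1.59 ± 0.28 (adjusted p = 0.00114) and 1.30 ± 0.28 (adjusted p = 0.00458). Slc7a3 was higher by 0.80 ± 0.14 (adjusted p = 0.00108), 0.69 ± 0.14 (adjusted p = 0.0026) and 0.54 ± 0.14 (adjusted p = 0.0129), the last lost without KO-labelled 8h2h replicate c (adjusted p = 0.0591). Slc6a9 did not pass at 0h (0.01 ± 0.25, adjusted p = 0.983) and was higher by 1.75 ± 0.25 at 8h (adjusted p = 0.000179) and 1.11 ± 0.25 at 8h2h (adjusted p = 0.00509). Slc7a11 went the other way and was at least 1.64-fold lower on KO-labelled arrays at 8h (adjusted p = 0.00221). Slc7a5 differed by 0.12 ± 0.12, 0.24 ± 0.12 and 0.16 ± 0.12 and passed at no time.

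Of the stress genes, Trib3 did not pass at 0h (0.57 ± 0.21, adjusted p = 0.0737) and was higher on KO-labelled arrays by 1.42 ± 0.21 at 8h (adjusted p = 0.000232) and 0.91 ± 0.21 at 8h2h (adjusted p = 0.00572). Chac1 was higher by 2.14 ± 0.40 (adjusted p = 0.00172), Herpud1 by 0.84 ± 0.18 (adjusted p = 0.00398), Stc2 by 1.51 ± 0.26 (adjusted p = 0.000985) and Nupr1 by 1.83 ± 0.44 (adjusted p = 0.00824) at 8h. Atf4 was higher by 0.75 ± 0.23 at 8h (adjusted p = 0.0331), a call lost without any 1 of 4 arrays, with an adjusted p of up to 0.134. The second Atf4 probe was higher by 1.01 at 8h (adjusted p = 0.00259). It was also higher by 0.75 at 8h2h (adjusted p = 0.0165), where the first probe differed by 0.42 and did not pass. Vldlr differed by -0.31 ± 0.31 at 8h and passed at no time. Cebpb and Atf3 passed as lower on KO-labelled arrays at each time. Ddit4 differed by -0.84 ± 0.34, -0.95 ± 0.34 and -0.69 ± 0.34, which passed at no time. Cebpb read 0.70, 0.74 and 1.27 on Rescue-labelled and -0.62, -0.52 and -0.66 on KO-labelled arrays at 0h. The lines did not overlap at any of the 3 times and differed by -1.50 ± 0.15 (adjusted p = 1.43e-05), -1.68 ± 0.15 (adjusted p = 4.15e-06) and -1.46 ± 0.15 (adjusted p = 1.49e-05). Atf3 read -1.80, -1.87 and -1.65 on Rescue-labelled arrays at 0h and was above background on 0 of 3 KO-labelled arrays. It was thus at least 6.34-fold lower on the latter (adjusted p = 1.4e-05). It was lower by -1.60 ± 0.37 at 8h (adjusted p = 0.0067) and -1.66 ± 0.37 at 8h2h (adjusted p = 0.0054), calls lost without scaling (adjusted p = 0.0765 and 0.0783).

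**Figure D5:**
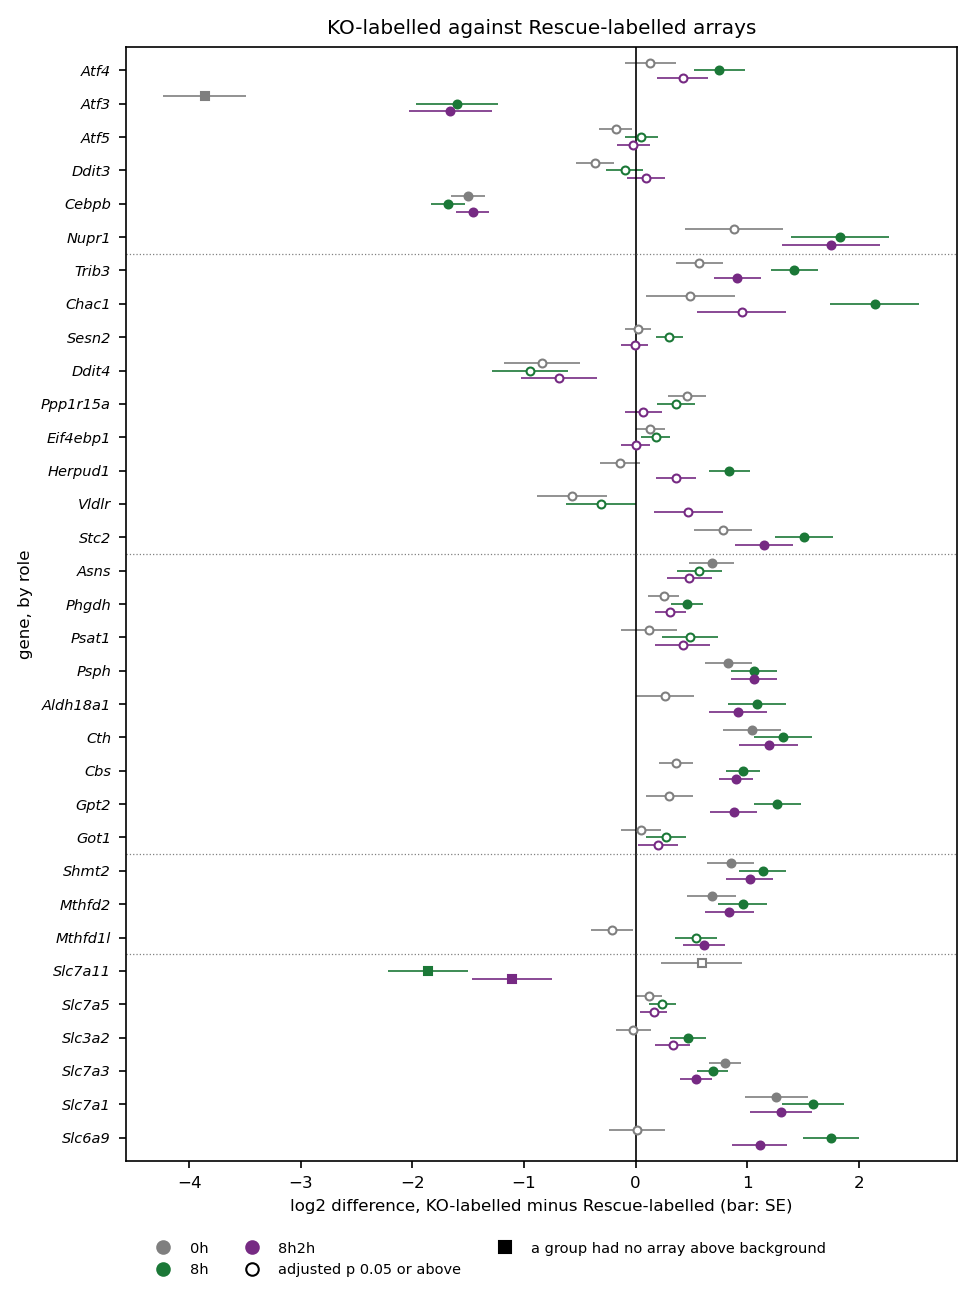
Log2 difference of 33 genes between KO-labelled and Rescue-labelled arrays at 0h (grey), 8h (green) and 8h2h (purple), n = 3 per group; bars are SE, filled symbols passed the test and squares mark a group with no array above background. The 9 synthesis enzymes lie right of 0 at each time, as do the one-carbon enzymes except Mthfd1l at 0h, and Atf3, Cebpb and, after 4OHT, Slc7a11 lie left of it.

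The related lists were counted between the lines too. Of all genes, 7.09% were higher and 11.3% lower on KO-labelled arrays at 0h, 9.16% and 12.4% at 8h, and 9.55% and 12.3% at 8h2h. Of 20 tRNA synthetases, 0 passed at 0h (4 were higher at limma's unadjusted p below 0.05), and 7 were higher on KO-labelled arrays at 8h and 7 at 8h2h, with 0 lower in limma's test or at its unadjusted p below 0.05. At 8h these were led by Nars (0.87 ± 0.24, adjusted p = 0.0185), Mars1 (0.87 ± 0.25, adjusted p = 0.0246) and Yars (0.81 ± 0.19, adjusted p = 0.00667). Without scaling 1 passed at 8h, Nars (adjusted p = 0.0475), and 1 at 8h2h. Of 18 further transporters, 3 were higher and 8 lower at 0h, 5 and 1 at 8h, and 5 and 2 at 8h2h. Without scaling these became 1 and 1 at 0h, 2 and 0 at 8h, and 2 and 0 at 8h2h. Slc1a3, a glutamate carrier, was higher by 1.79 ± 0.21 at 8h (adjusted p = 3.53e-05). Of 16 genes of threonine, glycine and glutamine handling, 2, 4 and 4 were higher at 0h, 8h and 8h2h, and without scaling 1, 3 and 2. In limma's test 0 were lower at any time, while 2, 2 and 3 were lower at its unadjusted p below 0.05. Among these genes, Tdh was higher by 1.44 ± 0.13 at 8h (adjusted p = 5.88e-06), and its change from 0h to 8h differed between the lines by 0.87 ± 0.19 (adjusted p = 0.0249), a call lost without scaling (adjusted p = 1). Of 20 ER chaperones and unfolded protein response genes, 0, 1 and 0 were higher and 3, 1 and 3 lower at 0h, 8h and 8h2h, and 0 passed without scaling. At 8h both counts are below the 9.16% and 12.4% of all genes. Of 13 folate and methionine enzymes 0, 1 and 0 were higher at 0h, 8h and 8h2h and 0 lower in limma's test (2, 2 and 0 higher and 0 lower at an unadjusted p below 0.05), and of 12 genes of the eIF2alpha list 2, 2 and 0 were higher and 1, 1 and 1 lower, none of them without scaling.

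Replicates did not carry these differences equally. Among the 33 genes, replicate a was the highest KO-labelled 8h array for 22 and replicate b the lowest for 28, whereas replicate a was the lowest Rescue-labelled 8h array for 23. Neither these places nor the slide values that follow were counted over all genes. The median difference between the lines at 8h was 0.78 on slide a, 0.41 on slide b and 0.64 on slide c, and was above 0 for 29, 26 and 27 of the 33 genes. Over the change from 0h to 8h on KO-labelled arrays, the slide medians were 0.62, 0.33 and 0.59. At 8h2h, replicate b, the array that stood apart, was the lowest KO-labelled array for 26 genes, and the slide medians of the line difference were 0.70, 0.28 and 0.54.

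Markers of other cell types moved with the lines and times. The summed signal of 9 trophoblast markers, in multiples of the 75th percentile, was 175 to 201 on Rescue-labelled and 16.2 to 25.2 on KO-labelled arrays at 0h, and 270 to 282 and 45.2 to 59.1 at 8h. Cdx2, Hand1 and Plac1 were above background on 0 of the KO-labelled 0h arrays. The sum of 7 fibroblast markers went from 2.10 to 2.60 at 0h to 14.8 to 21.3 at 8h on KO-labelled arrays, and from 2.00 to 2.35 to 6.43 to 7.62 on Rescue-labelled arrays, with Col3a1, Dcn and Fap above background on 0 of the KO-labelled 8h arrays. The sum of 10 primitive endoderm markers was 24.8 to 33.4 on KO-labelled and 13.9 to 18.5 on Rescue-labelled arrays at 0h, and 21 to 29 and 15.9 to 20 at 8h. Against the order of the sums, Gata4, Sox7 and Afp were above background on 0 of the KO-labelled 0h arrays. On Rescue-labelled 0h arrays, 0 of the 10 were absent throughout. The part of these markers in the differences above was not tested.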

How the data were processed

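RNA of 18 samples was measured on 1-colour Agilent arrays, 1 per sample, from 100 ng of total RNA. Spots were read by the authors in Agilent Feature Extraction 12.0.1.1, per the file headers. The deposited processed signal is a background-subtracted intensity without scaling between arrays, and it equals the authors' value table on all spots. Flags for background, saturation and outliers, which are other deposited values, served as filters. The labels name Cy5 as dye and the headers a single green channel. Outlier spots were left out, spots of a probe averaged on the log2 scale, and each array's 75th percentile over non-control spots subtracted. Probes flagged as well above background throughout any group of 3 arrays were kept (34197 probes), and the brightest kept probe stood for its gene. Symbols came from RefSeq transcript names, for 32994 of 56605 probes. The number of arrays limits the precision.

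Groups followed the titles. A group-means model over all 18 arrays was fitted with R 4.3.3 using limma (3.58.1), so each SE rests on the spread of all 6 groups, and 11 contrasts were tested. Where no array of a group was above background, a fold is a lower bound against the lowest signal read as above background. Slides held all 6 groups. Deviations from the group means correlated above 0.1 for 28 of 45 same-slide pairs (median 0.141), so the slide was a block only in an alternative. The 34 genes and all lists were chosen with earlier results of these data known, and every gene of the list could be named. From each related list, up to 3 called genes per direction with the largest change could be named. Alternatives were normexp background correction (offset 50, on median spot signals), quantile normalization, no scaling, the authors' value table, averaging a gene's probes, dropping the filter on dim probes or asking it of all 18 arrays, the slide as block, fits to the compared arrays alone, a trended and robust prior, leaving out each array and, added after seeing the data, the percentile over probes.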

Additional observations from a re-analysis of the deposited data

Results flagged for a closer look

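For 3 genes the change from 0h to 8h differed between the lines in limma's test of the difference itself. Slc6a9 rose by 1.74 ± 0.35 (SE, log2) more on KO-labelled arrays (adjusted p = 0.0174), and the difference was above 0 on 3 of 3 slides. For Atf3 the fitted difference was 2.26 ± 0.53 (adjusted p = 0.0371), which is not a measured fold because the KO-labelled 0h group was at background, and the call was lost without any 1 of 14 arrays and under 5 other settings. Slc7a11 gave -2.45 ± 0.52 (adjusted p = 0.0222), also no measured fold, with signal above background only in the Rescue-labelled 8h and 8h2h groups. Its probe passed the filter only through those groups, so its p-value is no independent support. The Slc6a9 call was lost without Rescue-labelled 8h replicate a and without scaling, and the Slc7a11 call without any 1 of 3 arrays and under 5 other settings.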

How the results depend on the processing

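Of 363 gene changes (33 genes in 11 comparisons), 105 passed in limma's test. The alternatives were 11 settings and 18 arrays left out in turn. Of the 105, 46 passed under each alternative that included the gene, and 59 were lost under at least 1. Atf3, Vldlr and Slc7a11 were not above background on all 18 arrays, so the setting that asked for this did not include them. Another 41 changes were gained, and 0 reversed. Counts of genes called that moved by over 1.5 times were these. With normexp, the 10 Rescue-labelled calls at 8h and the 10 at 8h2h against 0h became 6 and 6. With quantile normalization, the Rescue-labelled and KO-labelled counts for 8h2h against 8h (1 and 5) became 0 and 2, and the line difference at 8h (3) became 1. Without scaling, with which the median change of all genes was -0.01 to 0.47, the counts were 5 (Rescue-labelled 8h), 0 and 0 (8h2h against 8h), 4 and 10 (between lines at 0h and 8h2h, from 9 and 17) and 0 (line difference at 8h). Without the filter on dim probes, 8h2h against 8h gave 0 and 2, with the filter over all 18 arrays 2 for Rescue-labelled arrays, and with the percentile over probes, added after seeing the data, 3 for KO-labelled arrays. With only the arrays compared, 8h2h against 8h gave 7 and 0, KO-labelled 8h2h against 0h 8 (from 14) and the lines at 0h 5. With the slide as a replicate block, Rescue-labelled 8h2h against 8h gave 3, and 2 calls were lost and 10 gained overall; the letters mark a shared slide, and deviations correlated above 0.1 in 28 of 45 same-slide pairs. Leaving out 1 array gave 0 to 3 and 2 to 5 for 8h2h against 8h (Rescue-labelled and KO-labelled), 6 to 12 for Rescue-labelled 8h2h against 0h and 0 to 4 for the line difference at 8h; without replicate b of the KO-labelled 8h2h group 24 changes were gained and 4 lost. The cause of these shifts was not tested. Signal over background limits Slc7a11 and Atf3.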
